A study of Mus musculus with 4 samples.

Results

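The Bcl2 family genes described here are 10 survival and death genes of the intrinsic pathway of apoptosis, chosen by symbol from the table of gene counts. They are *Bcl2*, *Bcl2l1* and *Mcl1*, which keep cells alive, *Bax* and *Bak1*, which open the mitochondrion, and *Bcl2l11*, *Bbc3*, *Pmaip1*, *Bid* and *Bad*, which start the process. All 10 were found among the 23337 genes of the table, and all 10 passed the filter on low counts that left 18547 genes for testing. Gene expression was measured by RNA-seq in medullary thymic epithelial cells (mTECs) sorted from the thymus of C57BL/6 mice at 4 weeks of age, to ask how loss of the deacetylase SIRT6 alters these cells. The design holds 4 libraries, 2 labelled wild type (WT) and 2 labelled *Sirt6*-/-. According to the study's methods, the *Sirt6*-/- mice carry *Sirt6* loxp/loxp and *Foxn1*-Cre, and the WT mice are littermates or age-matched mice without *Foxn1*-Cre. *Foxn1* is active in thymic epithelium and also in skin epithelium. The sort gate was CD45-EpCAM+UEA-1+Ly51-. How many animals went into each sample is not given in the sources used here, so p-values measure the spread between these samples, which may be technical in part.

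BCL2 family proteins decide whether the outer membrane of the mitochondrion stays closed. The pro-survival proteins BCL2, BCL-XL (from *Bcl2l1*) and MCL1 hold the effectors BAX and BAK in check, and the BH3-only proteins BIM (from *Bcl2l11*), PUMA (from *Bbc3*), NOXA (from *Pmaip1*), BID and BAD bind the pro-survival proteins or the effectors and tip the balance, after which cytochrome c leaves the mitochondrion and activates the apoptosome. mTECs turn over quickly, and mature *Aire*-expressing mTECs are among the cells of the thymus that die soon after they differentiate.

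The total count lay between 61102704 and 65907745 per library, and 18608 to 19475 genes had a count. The *Sirt6* count was 622 and 755 in the WT libraries and 882 and 835 in the libraries labelled *Sirt6*-/-, with a log2 fold change of 0.37 and a standard error of 0.32 (edgeR adjusted p = 0.800). The libraries labelled *Sirt6*-/- thus did not hold less *Sirt6* RNA. This count covers the whole gene, and the exons flanked by loxP sites are not given in the sources used here, so it does not check the deletion. The study examined the deletion by western blot and quantitative PCR, which are not analysed here. Every direction below compares the libraries as labelled. Markers of mTECs were detected in every library, at levels that differed widely between markers. Levels are given in TPM, StringTie's length-corrected share of all transcripts. *Epcam*, which encodes the surface protein of the gate, stood at 798 and 835 TPM in WT and 1060 and 1201 TPM in *Sirt6*-/-.

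The 10 genes spanned a wide range of levels in mTECs. On the TPM scale, which allows genes to be compared, *Pmaip1* was the highest, with a mean of 955 TPM over the 4 libraries. *Bcl2l1* followed at 657 TPM, and the ranges of these genes over the libraries overlapped, although *Pmaip1* was above *Bcl2l1* in 4 of 4 libraries. *Bax* came next at 311 TPM, *Bid* at 84.5 TPM and *Mcl1* at 60.4 TPM, and each of these was above its next lower neighbour in all 4 libraries with no overlap of the ranges. *Bcl2l11* at 37.8 TPM, *Bbc3* at 36.7 TPM and *Bad* at 30.6 TPM formed a group whose neighbours overlapped. The lowest were *Bcl2* at 14.4 TPM and *Bak1* at 12.3 TPM, whose ranges overlapped too. Among all genes of the table, *Pmaip1* stood on average at percentile 99.5 of the TPM values and *Bak1* at percentile 62.2. Among the 10 genes, each role was thus led by a single gene. *Bax* exceeded *Bak1* by between 13.6-fold and 67.6-fold. *Bcl2l1* held between 87.5% and 92.4% of the TPM of the 3 pro-survival genes. *Pmaip1* held between 80.7% and 89.0% of the TPM of the 5 BH3-only genes. Outside the 10, the pro-survival relative *Bcl2a1b* stood at 510 and 556 TPM in WT and 666 and 710 TPM in *Sirt6*-/-. In *Sirt6*-/- 1 this was above *Bcl2l1*, at 621 TPM. The counts of *Bcl2a1b* are uncertain, because it shares sequence with its paralogs.

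**Figure D1:**
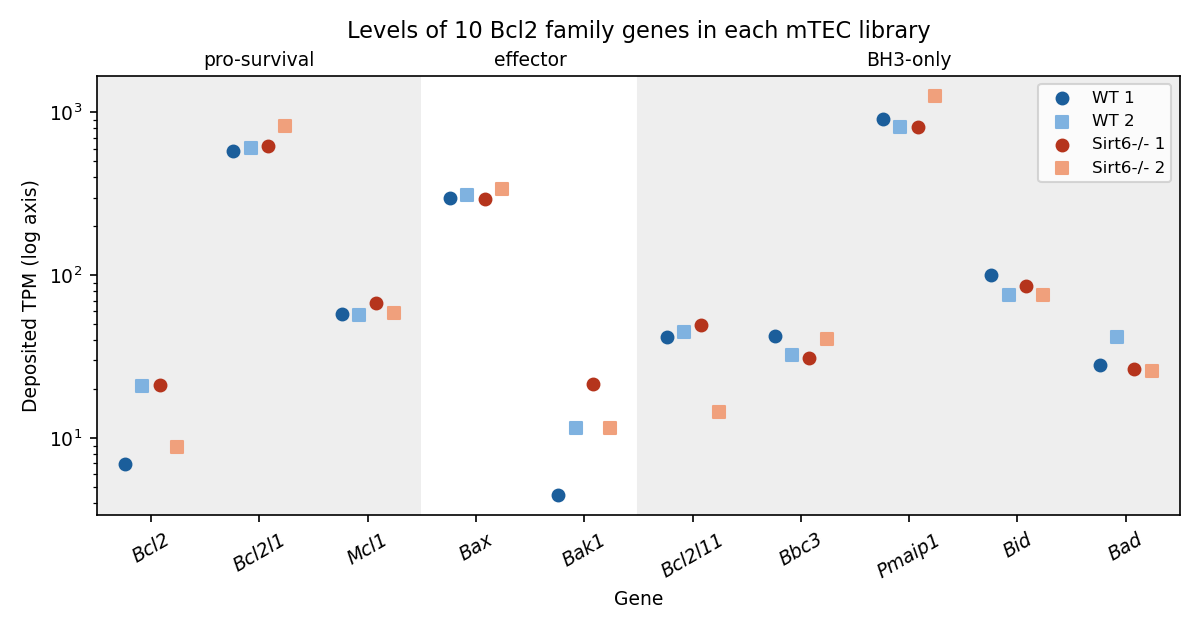
TPM of the 10 genes (log axis) in each of the 4 libraries, with circles for replicate 1 and squares for replicate 2 of WT (blue) and *Sirt6*-/- (red), grouped by role. *Pmaip1* and *Bcl2l1* are at the top in every library, while *Bcl2* and *Bak1* lie at the bottom with a wide spread, and *Bcl2l11* is low only in *Sirt6*-/- 2, at 14.5 TPM.

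For none of the 10 genes was a difference between the groups shown. With edgeR's quasi-likelihood test, 0 of 10 genes passed an adjusted p of 0.05 (0.00539% of all genes tested, or 1 gene, did so) and 0 of 10 passed an unadjusted p of 0.05 (8.58% of all genes). DESeq2 also called 0 of 10 at the adjusted p (1.7% of all genes it tested) and 0 at the unadjusted p (10.2%). With limma on log2(TPM + 1), 0 of 10 passed the adjusted p (0.0377% of all genes) and 0 the unadjusted p (9.61%), and with limma on log2(TPM + 0.1), 0 passed the adjusted p (0.0108%) and 0 the unadjusted p (9.32%). Adjusted p-values in edgeR ran from 0.668 for *Bak1* upward. Of the 10 log2 fold changes, 6 were above 0 (49.6% of all genes were) and 4 below, with a median of 0.10, beside -0.0047 over all genes tested. In 10 of 10 genes the larger gap between replicates of a group was over the difference between the groups, which was so for 71.8% of all genes.

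**Figure D2:**
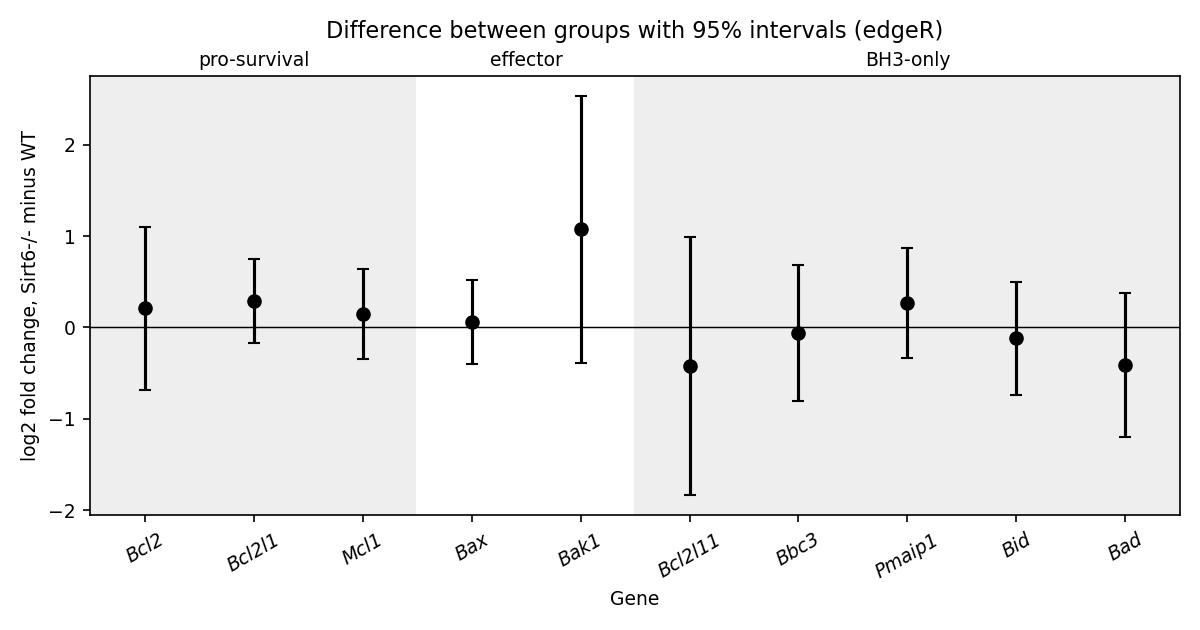
The log2 fold change (*Sirt6*-/- minus WT) of each of the 10 genes from edgeR's quasi-likelihood fit, with bars for the 95% confidence interval. All 10 intervals include 0; they are widest for *Bak1*, from -0.39 to 2.53, and *Bcl2l11*, from -1.84 to 0.98.

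Among the pro-survival genes, *Bcl2l1* and *Mcl1* were slightly higher in both *Sirt6*-/- libraries than in both WT libraries, by amounts that the replicates do not resolve, and *Bcl2* overlapped between the groups. *Bcl2l1*, on chr2:152780668-152831728 (GRCm38, minus strand), encodes BCL-XL, which holds BAX and BAK and binds most BH3-only proteins. Its CPM (counts scaled to library size with TMM factors) were 630 and 647 in WT and 676 and 889 in *Sirt6*-/-. The groups did not overlap, but the high mean of *Sirt6*-/- came from *Sirt6*-/- 2, since *Sirt6*-/- 1 lay close to WT. The means were 638 ± 12.0 CPM in WT and 782 ± 151 CPM in *Sirt6*-/- (SD, n = 2 each). Its log2 fold change was 0.29 with an interval from -0.17 to 0.75 (edgeR adjusted p = 0.714). In these bulk samples, fewer cells that express a gene and less of its RNA per cell cannot be told apart.

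*Mcl1*, on chr3:95658788-95663176 (plus strand), encodes a short-lived pro-survival protein that is bound by NOXA and BIM. Its CPM were 92.9 and 89.5 in WT and 108 and 93.7 in *Sirt6*-/-. Again the groups did not overlap, with *Sirt6*-/- 1 the highest library and *Sirt6*-/- 2 just above WT 1. Its log2 fold change was 0.14 with an interval from -0.35 to 0.64 (edgeR adjusted p = 0.890). *Mcl1* was among the steadiest genes: 8.48% of all genes tested had a smaller SD of log2 CPM within the groups.

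*Bcl2*, on chr1:106538178-106714274 (minus strand), is the founding member of the family and protects lymphocytes and epithelial stem cells. Between 1431 and 2341 counts were assigned to it, or 21.9, 35.2, 38.8 and 27.3 CPM in the order WT 1, WT 2, *Sirt6*-/- 1 and *Sirt6*-/- 2. WT 2 and *Sirt6*-/- 1 were the high libraries and WT 1 and *Sirt6*-/- 2 the low ones, so the groups overlapped. The log2 fold change was 0.21 with an interval from -0.68 to 1.10 (edgeR adjusted p = 0.917). An antisense gene, *D630008O14Rik*, shares 558 exon bases with *Bcl2*, and whether the counting used strand is not given in the sources used here.

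*Bcl2* was the only one of the 10 genes for which counts and TPM gave different sizes of change between libraries. Its TPM was 6.94 and 20.9 in WT and 21.1 and 8.76 in *Sirt6*-/-, a 3.04-fold range, where the CPM spanned 1.77-fold. The same libraries were high and low on both scales, but the gap was wider in TPM. A count divided by its TPM is proportional to the transcript length that the quantification assigned to the gene in that library, and this ratio was set in bases with the 1230 genes that have a single annotated transcript. For *Bcl2* the implied length was 6831 bases in WT 1 and 6838 bases in *Sirt6*-/- 2, and 3762 bases in WT 2 and 4011 bases in *Sirt6*-/- 1. The annotation (GENCODE M21) holds 2 transcripts of *Bcl2*, both protein-coding, of 7191 and 2841 bases. In WT 1 and *Sirt6*-/- 2 the implied length was thus near that of the long transcript, and in WT 2 and *Sirt6*-/- 1 it lay between both. This split followed no label, as each group held 1 library of each kind. In the other 9 genes the ratio varied by at most 1.006-fold between libraries, and among 13249 genes with more than 100 counts and a TPM over 1 in every library, 31 (0.234%) varied by more than 1.5-fold. Which transcripts were present in each library cannot be read from gene-level values.

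**Figure D3:**
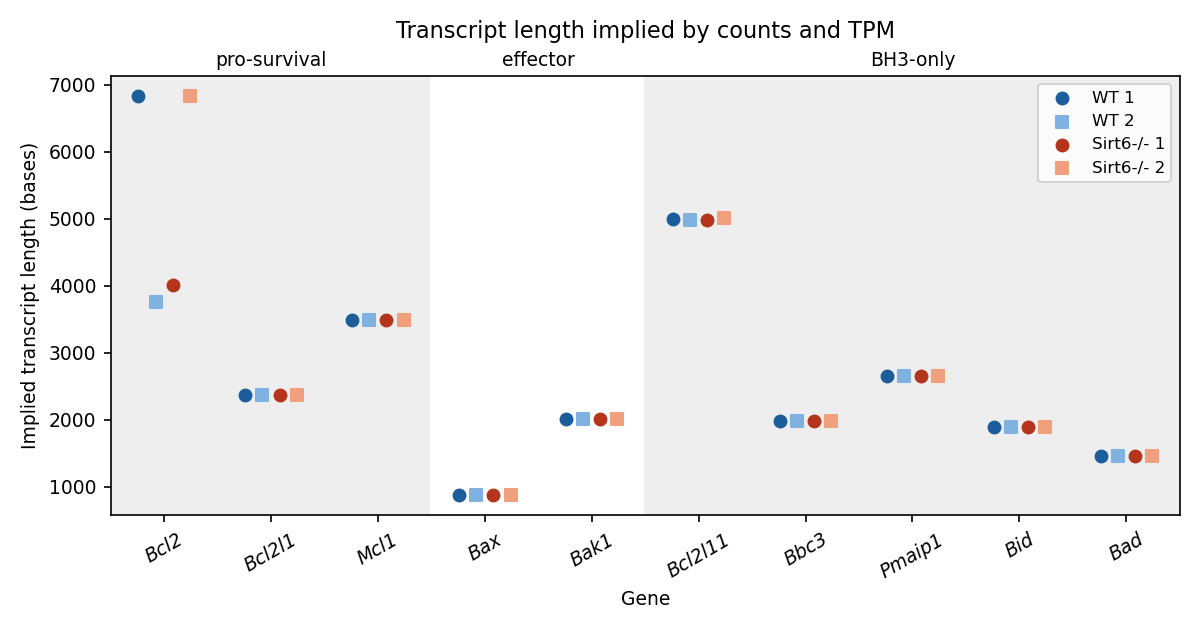
Transcript length in bases implied by the count and TPM of each of the 10 genes in each library, with circles for replicate 1 and squares for replicate 2 of WT (blue) and *Sirt6*-/- (red). For 9 genes the 4 points lie at 1 height, while *Bcl2* lies near 6831 and 6838 bases in WT 1 and *Sirt6*-/- 2 and at 3762 and 4011 bases in WT 2 and *Sirt6*-/- 1.

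The effectors BAX and BAK form the pores of the outer membrane. In these libraries *Bax* was high and steady and *Bak1* low and variable. *Bax*, on chr7:45461697-45466898 (minus strand), had 120 and 121 CPM in WT and 117 and 134 CPM in *Sirt6*-/-. Both WT libraries lay between the *Sirt6*-/- libraries. The means were 121 ± 0.411 CPM in WT and 126 ± 12.0 CPM in *Sirt6*-/- (SD, n = 2 each), with a log2 fold change of 0.06 and an interval from -0.41 to 0.52. *Bax* was the steadiest of the 10 genes, since 7.41% of all genes tested had a smaller SD within the groups. It shares 192 exon bases on the same strand with the annotated gene *Gm45808*, and reads from that stretch may be split between them.

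*Bak1*, on chr17:27019810-27029009 (minus strand), had the largest log2 fold change of the 10 genes and one of the largest spreads. WT 1 and WT 2 had 269 and 657 counts, and *Sirt6*-/- 1 and *Sirt6*-/- 2 had 1200 and 673, or 4.11, 10.3, 19.9 and 10.5 CPM in that order. WT 1 was low and *Sirt6*-/- 1 was high, while WT 2 and *Sirt6*-/- 2 were almost equal, so that the groups did not overlap by a narrow margin in CPM. In TPM the values were 4.44, 11.5, 21.6 and 11.5, and the groups overlapped, with WT 2 just above *Sirt6*-/- 2. The means were 7.22 ± 4.39 CPM in WT and 15.2 ± 6.64 CPM in *Sirt6*-/- (SD, n = 2 each). Its log2 fold change was 1.07 with a standard error of 0.58 and an interval from -0.39 to 2.53 (edgeR adjusted p = 0.668). Without WT 2 it was 1.89, and without WT 1 it was 0.53. Exons of *Ggnbp1*, a gene on the other strand that the annotation lists under 2 entries, cover 437 and 177 bases of *Bak1*, and 18.2% of the 50-base words of the longest *Bak1* transcript also occur in *Ggnbp1* transcripts, so without strand the counts of these genes cannot be told apart there.

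The BH3-only genes carry the start signals, and 4 of these 5 had a log2 fold change below 0, with *Pmaip1* the exception. *Pmaip1*, on the plus strand, encodes NOXA, a p53 target that binds MCL1 and promotes its degradation. Its CPM were 1123 and 974 in WT and 994 and 1534 in *Sirt6*-/-. *Sirt6*-/- 2 stood above the other libraries, and *Sirt6*-/- 1 lay within the WT range. Its log2 fold change was 0.27 with an interval from -0.33 to 0.87 (edgeR adjusted p = 0.808), and it was -0.11 without *Sirt6*-/- 2 and 0.55 without *Sirt6*-/- 1.

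*Bcl2l11*, on chr2:128126038-128162547 (plus strand), encodes BIM, which binds all pro-survival members and is required for the deletion of self-reactive thymocytes. WT 1 and WT 2 had 6319 and 6415 counts, and *Sirt6*-/- 1 and *Sirt6*-/- 2 had 6868 and 2118, or 96.5, 101, 114 and 33.0 CPM in that order. Of the 4 libraries 3 were close together and *Sirt6*-/- 2 alone was low, 3.45-fold under *Sirt6*-/- 1. The means were 98.7 ± 3.02 CPM in WT and 73.4 ± 57.1 CPM in *Sirt6*-/- (SD, n = 2 each). The log2 fold change was -0.43 with a standard error of 0.56 and an interval from -1.84 to 0.98 (edgeR adjusted p = 0.885). It turned to 0.17 without *Sirt6*-/- 2 and to -1.58 without *Sirt6*-/- 1. The SD within the groups was larger than that of 80.3% of all genes tested, the largest of the 10 genes.

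Thymocytes express *Bcl2l11* as well, and the summed TPM of 15 thymocyte markers was 2315 and 1706 in WT and 2079 and 1276 in *Sirt6*-/-, so it was also lowest in *Sirt6*-/- 2. By marker, 13 of 15 were lowest in *Sirt6*-/- 2, and the other 2, *Ptprc* and *Rag2*, were lowest in WT 2. None of the 15 markers passed an unadjusted p of 0.05 in edgeR, and none was at 0 in any library. *Ptprc*, which encodes the CD45 that the gate excludes, stood at 145, 106, 177 and 129 TPM in the order WT 1, WT 2, *Sirt6*-/- 1 and *Sirt6*-/- 2. The part of thymocyte RNA in the low *Bcl2l11* value was not tested.

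*Bbc3*, on chr7:16308393-16318205 (plus strand), encodes PUMA, another p53 target that binds all pro-survival members. Its CPM were 38.7 and 28.9 in WT and 28.1 and 36.8 in *Sirt6*-/-. Each group held a high and a low library, and the log2 fold change was -0.06 with an interval from -0.80 to 0.68 (edgeR adjusted p = 0.98). *Bid*, on chr6:120891930-120916853 (minus strand), encodes the protein that caspase-8 cleaves to link death receptors to the mitochondrion. Its CPM were 87.6 and 64.4 in WT and 74.7 and 65.2 in *Sirt6*-/-. The *Sirt6*-/- libraries lay between the WT libraries, with a log2 fold change of -0.12 and an interval from -0.74 to 0.50 (edgeR adjusted p = 0.935). *Bcl2l13*, on the other strand, shares 628 exon bases with *Bid*.

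*Bad*, on chr19:6941861-6951899 (plus strand), encodes a BH3-only protein that growth factor signals silence by phosphorylation. Its CPM were 18.9 and 27.2 in WT and 17.6 and 17.1 in *Sirt6*-/-. The groups did not overlap, since both *Sirt6*-/- libraries lay just under WT 1, and WT 2 stood apart above it. The means were 23.0 ± 5.85 CPM in WT and 17.4 ± 0.372 CPM in *Sirt6*-/- (SD, n = 2 each). Its log2 fold change was -0.41 with an interval from -1.19 to 0.38 (edgeR adjusted p = 0.771), and without WT 2 it was -0.12. *Gpr137*, on the other strand, shares 524 exon bases with *Bad*.

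Seen over all 10 genes, the groups did not overlap in CPM for 4 genes, *Bcl2l1*, *Mcl1*, *Bak1* and *Bad*, beside 41.9% of all genes tested. In TPM they did not overlap for *Bcl2l1*, *Mcl1* and *Bad*, or 3 of 10 genes beside 41.8% of all genes. An exact two-sided permutation test of 2 libraries against 2 cannot go below p = 0.33, so it cannot call any of them. Which library was highest or lowest differed from gene to gene. *Sirt6*-/- 2 was the highest library for *Bcl2l1*, *Bax* and *Pmaip1* and the lowest for *Bcl2l11* and *Bad*. WT 1 was the lowest for *Bcl2l1*, *Bcl2* and *Bak1* and the highest for *Bbc3* and *Bid*. *Sirt6*-/- 1 was the highest for *Bcl2*, *Mcl1*, *Bak1* and *Bcl2l11* and the lowest for *Bax* and *Bbc3*. WT 2 was the highest for *Bad* and the lowest for *Mcl1*, *Pmaip1* and *Bid*.

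**Figure D4:**
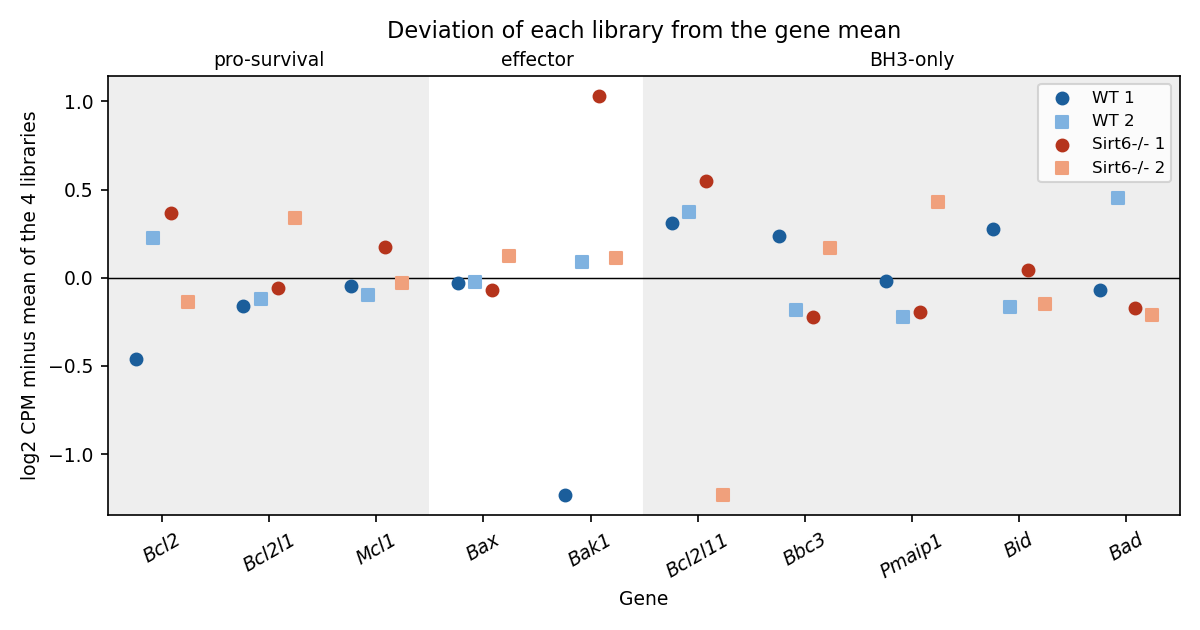
Deviation of log2 CPM in each library from the mean of the 4 libraries, for the 10 genes, with circles for replicate 1 and squares for replicate 2 of WT (blue) and *Sirt6*-/- (red). The largest deviations are -1.23 for *Bcl2l11* in *Sirt6*-/- 2 and -1.23 and 1.03 for *Bak1* in WT 1 and *Sirt6*-/- 1.

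The balance between the roles was described with TPM ratios within each library. The TPM of the 3 pro-survival genes summed to 641 and 687 in WT and 709 and 890 in *Sirt6*-/-, with no overlap and with most of the sum from *Bcl2l1*. The 2 effector genes summed to 305 and 322 TPM in WT and 315 and 350 TPM in *Sirt6*-/-, which overlapped. The 5 BH3-only genes summed to 1131 and 1014 TPM in WT and 1009 and 1424 TPM in *Sirt6*-/-, which overlapped too. Transcripts of these 5 BH3-only genes therefore outnumbered those of the 3 pro-survival genes in every library. The ratios were 1.77 and 1.48 in WT and 1.42 and 1.60 in *Sirt6*-/-. This order depends on the genes chosen. Other pro-survival relatives summed to 1120 and 1321 TPM in WT and 1440 and 1592 TPM in *Sirt6*-/-. Other BH3-only relatives summed to 52.6 and 79.7 TPM in WT and 80.9 and 66.7 TPM in *Sirt6*-/-. With both sets of relatives added, the order was reversed in every library. Most of the added pro-survival TPM is uncertain, since *Bcl2a1b* and its paralogs share sequence. Without the relatives, the ratio of effector to pro-survival TPM was 0.476 and 0.469 in WT and 0.444 and 0.393 in *Sirt6*-/-. It was lower in both *Sirt6*-/- libraries than in both WT libraries. With 2 libraries in each group, neither this ratio nor the pro-survival sum can be called by a permutation test. Both include *Bcl2l1*, whose own difference was not called (edgeR adjusted p = 0.714).

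Ratios of single genes were set side by side in the same way. The *Bax* to *Bcl2l1* ratio sets the highest effector gene of the 10 against the highest pro-survival gene of the 10. It was 0.521 and 0.510 in WT and 0.473 and 0.411 in *Sirt6*-/-, with no overlap. It shares *Bcl2l1* with the pro-survival sum and the effector to pro-survival ratio, so these are not separate results. The limit of the permutation test applies to it too. The other 3 ratios described here overlapped between the groups. The *Bax* to *Bcl2* ratio, a common index of readiness for apoptosis, was 43.3 and 14.9 in WT and 13.9 and 38.6 in *Sirt6*-/- on the TPM scale. High and low values occurred in both groups, and they followed the implied length of *Bcl2* described above. The *Bcl2l11* to *Mcl1* ratio was 0.727 and 0.788 in WT and 0.737 and 0.245 in *Sirt6*-/-, so *Sirt6*-/- 2 alone differed. The *Pmaip1* to *Mcl1* ratio was 15.9 and 14.3 in WT and 12.1 and 21.5 in *Sirt6*-/-. Here the *Sirt6*-/- libraries held both the lowest and the highest value. Together, the 10 genes made up between 0.202% and 0.266% of all TPM.

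Leaving out a library changed the picture for single genes but gave no call at the adjusted p. Without *Sirt6*-/- 1, 3 of 10 genes passed an unadjusted p of 0.05 in edgeR (3.91% of all genes did so in that fit). They were *Bcl2l1* with a log2 fold change of 0.48, *Bcl2l11* with -1.58 and *Pmaip1* with 0.55 (edgeR adjusted p = 0.999 for each), all of which rest on *Sirt6*-/- 2 as the lone library of its group. Without WT 2, *Bak1* alone of the 10 passed it at a log2 fold change of 1.89, beside 8.02% of all genes (edgeR adjusted p = 0.617). The lone library of a group is taken to vary like the others in these fits. The direction turned without at least 1 of the libraries for *Bcl2*, *Bax*, *Bcl2l11*, *Bbc3*, *Pmaip1* and *Bid*, and it held in all 4 fits for *Bcl2l1*, *Mcl1*, *Bak1* and *Bad*.

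**Figure D5:**
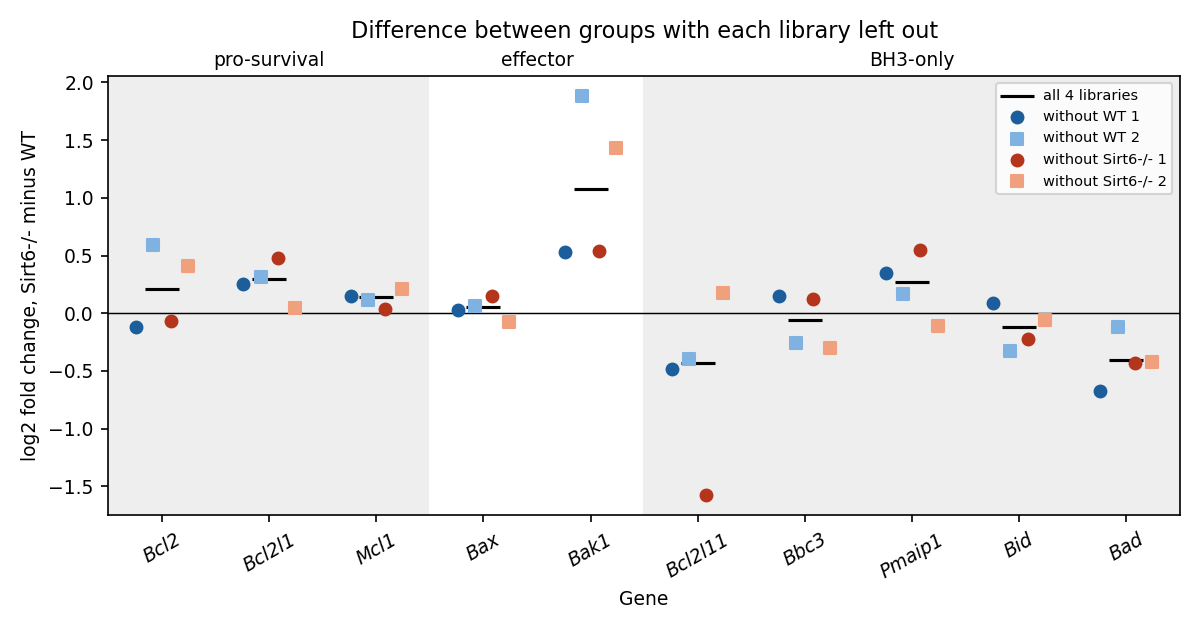
The log2 fold change (*Sirt6*-/- minus WT) of the 10 genes in edgeR with all 4 libraries (black bars) and with each library left out in turn (points, coloured by the library left out). *Bcl2l11* runs from -1.58 to 0.17 and *Bak1* from 0.53 to 1.89, while *Mcl1* stays between 0.04 and 0.21.

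Transcription of several of these genes is known to be driven by FOXO factors and p53. The promoter windows of the RefSeq annotation (GRCm38.p6, 250 bases before to 50 bases after each start) were therefore searched on both strands. They covered 9 of the 10 genes with 15 windows, and *Pmaip1* was left out. The FOXO element GTAAACA was present in 2 of 15 windows, those of *Bcl2l11* and *Bbc3*, beside 3.65% of 32851 promoters. A single 10-base unit of the p53 response element was present in 1 of 15 windows, that of *Bax*, beside 8.36% of all promoters. The whole response element was not searched for. A match is a description of the letters and not of binding, and the motifs did not overlap each other. The windows with a match are shown because they belong to genes of 2 roles, an effector and BH3-only genes, with the match in capitals, 5′ to 3′ on the gene's strand. That of *Bax* lies on chr7:45466849-45467148 (minus strand), with the match starting at position -201 from the transcription start, and that of *Bcl2l11* on chr2:128125788-128126087 (plus strand), with the match at -227. That of *Bbc3* lies on chr7:16310011-16310310 (plus strand), with the match at -167 on the opposite strand.
Bax promoter: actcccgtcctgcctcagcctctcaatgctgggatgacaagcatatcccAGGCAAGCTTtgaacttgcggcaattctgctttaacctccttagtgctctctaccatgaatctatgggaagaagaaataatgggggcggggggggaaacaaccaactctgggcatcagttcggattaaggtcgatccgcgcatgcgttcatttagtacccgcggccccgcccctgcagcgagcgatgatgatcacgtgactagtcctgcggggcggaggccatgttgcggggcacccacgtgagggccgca
Bcl2l11 promoter: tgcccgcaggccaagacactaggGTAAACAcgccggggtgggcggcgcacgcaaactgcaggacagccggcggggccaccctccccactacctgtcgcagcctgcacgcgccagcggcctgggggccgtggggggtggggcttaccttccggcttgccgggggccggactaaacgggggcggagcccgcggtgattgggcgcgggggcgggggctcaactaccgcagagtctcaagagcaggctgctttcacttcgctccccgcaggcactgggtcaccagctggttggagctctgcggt
Bbc3 promoter: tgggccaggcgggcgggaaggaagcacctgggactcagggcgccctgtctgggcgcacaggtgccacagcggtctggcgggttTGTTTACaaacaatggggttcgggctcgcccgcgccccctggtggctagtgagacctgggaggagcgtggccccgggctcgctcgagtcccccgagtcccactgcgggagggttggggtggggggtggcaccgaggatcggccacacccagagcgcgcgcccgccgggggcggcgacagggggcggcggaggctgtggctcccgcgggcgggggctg

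To place the family in its pathway, 91 other genes of apoptosis and its regulation were followed in 10 lists, of which 89 could be tested. At an unadjusted p of 0.05 in edgeR, 11 of the 89 genes were higher in *Sirt6*-/- (12.4%, beside 5.27% of all genes tested) and 0 were lower (beside 3.32%). Over all genes tested, 977 were higher and 615 lower at that p, and 751 and 800 when upper quartile factors replaced TMM. At the adjusted p, edgeR called 0 of 89 (0.00539% of all genes tested) and limma 0 at either pseudocount (0.0377% and 0.0108%). DESeq2 called 1 of 89, *Cflar*, beside 1.7% of all genes it tested. The median log2 fold change was 0.10, as in the 10 family genes, with 50 genes above 0 and 39 below. The lists were chosen with earlier results of these data known, so their counts are no independent evidence of a direction.

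The transcriptional regulators held the most of these genes, 5 of 12, with a median log2 fold change of 0.30. *Foxo3*, which drives *Bcl2l11* and *Bbc3*, the genes with the FOXO element in the windows above, in cells deprived of growth factors, had counts of 496 and 517 in WT and 1003 and 1018 in *Sirt6*-/-. The WT libraries were close to each other, as were the *Sirt6*-/- libraries, at about a doubled level. Its log2 fold change was 1.05 with a standard error of 0.31 (edgeR adjusted p = 0.541). *Mdm2*, the ubiquitin ligase of p53, had a log2 fold change of 0.60, and *Atf4*, a factor of the integrated stress response, had 0.76. *Egr1* and *Jun*, both immediate early factors, had 0.48 and 0.38, and *Jun* kept an unadjusted p under 0.05 in 3 of 13 alternatives. An antisense gene, *Junos*, shares 232 exon bases with *Jun*.

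In the death receptor arm, 2 of 13 genes passed the unadjusted p. *Cflar*, which encodes the caspase-8 inhibitor c-FLIP, had counts of 16517 and 18017 in WT and 33845 and 29642 in *Sirt6*-/-. Every *Sirt6*-/- library was well above every WT library, and the gaps within the groups were small beside the difference. The log2 fold change was 0.93 with a standard error of 0.18 (edgeR adjusted p = 0.541), and DESeq2 gave an adjusted p of 0.00836. Of the 50-base words of its longest transcript, 11.7% occur in other genes, so part of its reads may be shared. *Tnf*, an inflammatory ligand that can signal death or survival, had a log2 fold change of 0.93, with counts of 10538 and 5864 in WT and 18192 and 11647 in *Sirt6*-/-. The lowest *Sirt6*-/- library was only slightly above the highest WT library.

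Among the 10 tested inhibitors of apoptosis, 2 passed the unadjusted p: *Xiap*, which inhibits the executioner caspases, with a log2 fold change of 0.85, and *Birc2*, a ubiquitin ligase of TNF receptor signalling, with 0.57. Of 13 genes of the apoptosome and the caspases, 1 passed it, *Casp9*, the caspase that the apoptosome activates, at 0.80. Exons of *Ctrc* and *Cela2a* on the other strand share 94 bases each with *Casp9*. Of 18 regulators of the family's proteins, 1 passed it, the kinase *Pim3*, which phosphorylates BAD, at 0.63. All 11 genes had edgeR adjusted p-values of 0.541 to 0.580, and their log2 fold changes stayed above 0 in all 13 alternatives. *Cflar* kept an unadjusted p under 0.05 in 13 of 13 alternatives, *Birc2* and *Mdm2* in 11, *Casp9*, *Foxo3*, *Atf4*, *Egr1* and *Pim3* in 10, and *Xiap* and *Tnf* in 8. Of these 11 genes, *Birc2*, *Tnf*, *Cflar* and *Mdm2* passed without WT 1, and *Xiap*, *Cflar*, *Foxo3*, *Egr1*, *Jun* and *Pim3* without WT 2. *Birc2*, *Cflar*, *Mdm2* and *Egr1* passed without *Sirt6*-/- 1, and *Casp9*, *Xiap*, *Tnf*, *Cflar* and *Atf4* without *Sirt6*-/- 2.

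The other relatives of the family gave no call at the unadjusted p. None of 4 tested pro-survival relatives passed it, and the smallest p belonged to *Bcl2a1b*, whose TPM were 510 and 556 in WT and 666 and 710 in *Sirt6*-/-. The groups did not overlap, and its log2 fold change was 0.38 with a standard error of 0.16 (edgeR adjusted p = 0.606). *Bcl2a1b* shares 79.2% of its 50-base words with other genes, chiefly its paralogs, so its counts are uncertain. None of 3 BH3-only relatives passed it, and *Hrk*, a BH3-only gene of neurons that had the smallest p, had a log2 fold change of 1.29 at counts of 50 to 224. Neither *Bok*, the third effector, at -0.05, nor any of 7 non-canonical relatives passed it, where *Bcl2l12* at -0.68 had the smallest p. None of 8 genes of the mitochondrial gate passed it, with *Slc25a5*, an adenine nucleotide carrier, at -0.53 having the smallest p. The pro-survival relative *Bcl2l10* had a count of 0 in every library and the nuclease gene *Endog* had 14 counts in WT 1 and 0 in the other libraries, and neither was tested.

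Markers of mTECs and of other cell types were also set side by side. No tested marker passed the adjusted p in edgeR (0.00539% of all genes tested did). At an unadjusted p of 0.05 in edgeR, 5.27% of all genes tested were higher and 3.32% lower, beside the marker counts that follow. The summed TPM of 12 mTEC markers overlapped, at 35256 to 37610 in WT and 35153 to 36860 in *Sirt6*-/-, and 3 of 12 were higher at the unadjusted p. Of this sum, 81.5% to 88.2% came from *H2-Aa* and *H2-Ab1*, which myeloid and B cells also express. The other 10 markers summed to 4451 and 4546 TPM in WT and 5076 and 6490 TPM in *Sirt6*-/-, with no overlap. Of the 12 markers, 8 did not overlap in CPM, beside 41.9% of all genes tested. The 9 myeloid markers summed to 6152 to 9809 TPM in WT and 3838 to 4120 TPM in *Sirt6*-/-, with 3 of 9 lower. Most of this was *Lyz2*, at 9532 and 5941 TPM in WT and 3664 and 3955 TPM in *Sirt6*-/-. Of the 9 log2 fold changes, 7 were below 0 and 2 above. The 7 tuft cell markers summed to 513 to 599 TPM in WT and 251 to 257 TPM in *Sirt6*-/-, with 4 of 7 lower. *Gnb3* held the largest part, at 326 and 385 TPM in WT and 126 and 142 TPM in *Sirt6*-/-. Of the 7 log2 fold changes, 5 were below 0 and 2 above. None of these markers was at 0 in any library. Markers of cortical epithelium summed to 419 to 430 TPM in WT and 430 to 587 TPM in *Sirt6*-/-. Of these 6, *Foxn1*, *Ly75* and *Dll4* were higher, with log2 fold changes of 0.83, 1.14 and 1.08. The other 3 were below 0: *Psmb11* at -0.25, *Prss16* at -0.41 and *Enpep* at -0.11. B cell markers summed to 203 to 244 TPM in WT and 162 to 212 TPM in *Sirt6*-/-, with 0 of 5 called. *Pax5* was at 0 in WT 1 and *Sirt6*-/- 2. Stromal markers summed to 613 to 697 TPM in WT and 566 to 662 TPM in *Sirt6*-/-, with 0 of 9 called. Proliferation genes summed to 254 to 520 TPM in WT and 291 to 536 TPM in *Sirt6*-/-, with 0 of 10 called. Red cell genes summed to 194 to 252 TPM in WT and 99.3 to 129 TPM in *Sirt6*-/-, with 1 of 4 tested lower. Most of this was *Hba-a2*, at 156 and 197 TPM in WT and 51.6 and 67.2 TPM in *Sirt6*-/-. Of the 4 log2 fold changes, 3 were below 0 and 1 above. The part of these populations in the values of the apoptosis genes was not tested.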

How the data were processed

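Total RNA of sorted mTECs was sequenced in 4 libraries, 2 labelled wild type and 2 labelled *Sirt6*-/-. Reads were trimmed by the authors, then aligned with HISAT2 2.1.0 to mm10 and quantified per gene with StringTie 1.3.3, as the submitters' processing notes and the study's methods state. Annotation and strand are not given in the sources used here. The authors deposited raw counts for 23337 genes and TPM values for each library. The TPM tables end in a line without a gene name, equal to 100% of the summed genes, and this line was left out.

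Counts were tested with edgeR 4.0.16 in R 4.3.3, with TMM factors of 0.966 to 1.04. The filter was filterByExpr with a minimum count of 10, not required in every library, and a minimum total of 15. The fit used glmQLFit and glmQLFTest on all 4 libraries with no covariates. Benjamini-Hochberg adjustment was made over 18547 genes. The biological coefficient of variation was 0.557. Errors are the SD of 2 libraries or the fit's standard error, intervals are 95%, and no pair of libraries agreed within sampling noise, with a chi-square per gene of 161 or more. The procedure was also run on simulated counts that gave every gene the same spread. Genes in these data differ in spread, so that run does not test the fit under their conditions. Alternatives were DESeq2 1.42.0, other normalizations and filters, the replicate number as a block, limma 3.58.1 on log2(TPM + 1) and log2(TPM + 0.1), which understates the change of low genes, and each library left out in turn. Positions, exon overlaps and shared 50-base words come from GENCODE M21 (GRCm38, which mm10 shares), and promoters from RefSeq. All 10 genes are named, and from each apoptosis list the genes with an unadjusted p under 0.05 or else the one with the smallest. Of the marker lists, not every gene with an unadjusted p under 0.05 is named. *Ptprc*, *Rag2*, *Pax5*, *Endog*, *Bcl2l10*, *Psmb11*, *Prss16*, *Enpep*, *H2-Aa* and *H2-Ab1* were chosen after their values were seen. The members and lists were chosen with earlier results of these data known.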

Additional observations from a re-analysis of the deposited data

How the results depend on the processing

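Of 130 log2 fold changes of the 10 genes, recomputed under 13 alternatives, 120 kept their direction and 10 reversed, and the lowest adjusted p was 0.561. The cause of the reversals was not tested. With a library left out, *Bcl2* ran from -0.12 to 0.60 (below 0 without WT 1, and -0.064 without *Sirt6*-/- 1), *Bax* from -0.077 (without *Sirt6*-/- 2) to 0.15, and *Bcl2l11* from -1.58 to 0.17 (without *Sirt6*-/- 2). In the same way, *Bbc3* ran from -0.30 to 0.15 (without WT 1, and 0.12 without *Sirt6*-/- 1), *Pmaip1* from -0.11 (without *Sirt6*-/- 2) to 0.55, and *Bid* from -0.32 to 0.093 (without WT 1). *Bax* was at -0.021 with upper quartile factors and at -0.031 with library size alone. With a library left out, 0 to 3 of the 10 genes passed the unadjusted p, and 5 to 9 of the 89 tested genes of the apoptosis lists did, beside 11 with all libraries. The count for the lists was 5 without WT 1, 6 without *Sirt6*-/- 1 and 7 without *Sirt6*-/- 2. Beside the share of all genes in the same fit, the share of the lists was lower without WT 1 and lower without *Sirt6*-/- 2. It was higher without WT 2 and higher without *Sirt6*-/- 1. The higher share of the lists with all libraries was thus not kept in every fit, and each of these fits leaves 1 library in a group. Over all genes, edgeR with all libraries called 977 higher and 615 lower at the unadjusted p (61.4% higher). Upper quartile factors gave 751 and 800 (48.4%) and library size alone 721 and 838 (46.2%). At the adjusted p, DESeq2 called 201 higher and 156 lower genes where edgeR called 1.

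The replicate numbers were not taken to pair the libraries: the labels name no shared animal, litter or day, and the deviations of WT 1 and *Sirt6*-/- 1 from their group means had a correlation of -0.0544 over 18547 genes. With the replicate block, 0 of the 10 genes passed the adjusted p and 0 the unadjusted p, and 10 genes of the apoptosis lists passed the latter. With 2 libraries in each group, the spread between replicates limits what can be called, and the intervals were widest for *Bak1* and *Bcl2l11*.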
